A study of Sus scrofa with 33 samples.

Results

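The pituitary transcripts described here are CD55, MSRB2, OAZ3, USF1, MATN2, IVNS1ABP, COL21A1 and AKAP12. The 8 genes, of 10088 gene symbols with a probe in the deposited log2 table, were picked from the difference between 2 pig breeds, because the array carried several probes for each. Every probe whose gene name or description in the scanner files gave one of these symbols was taken, which found 37 probes by gene name and 3 by description. Of the 40 probes, 38 were among the 45667 probes of the log2 table, and the other 2 were a CD55 probe that was well above background on 0 arrays and a COL21A1 probe that was well above background on 2 Creole arrays. The 38 probes held 36 distinct sequences. Because the difference between the breeds chose the genes, that difference is described below without p-values, and counts past its threshold only show how the genes were chosen. Tests are given for temperature, for the F1 pigs, for the genes' relatives and for their neighbours on the chromosome.

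Pituitary RNA of 33 castrated male pigs was hybridised, 1 animal per array. Large White (LW), a lean European breed, Creole (CR), a breed kept in the tropics, and their F1 cross (Large White×Creole) had 11 arrays each. Within each breed, pigs were killed either under thermoneutral conditions (TN, labelled 24 °C) or after 4 or 5 days of heat stress (HS, labelled 30 °C, but 32 °C in the text of the series). There were 5 LW TN, 6 LW HS, 5 CR TN, 6 CR HS, 6 F1 TN and 5 F1 HS arrays. All pigs had entered the climatic room at 11 weeks of age. All TN pigs were killed first and the HS pigs at the end of the heat, so slaughter day and age cannot be told apart from temperature. Littermates and penmates were used in the study, but the labels do not tell which pigs these were, so related pigs are counted as separate animals.

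Median intensity per array was 131 to 165 against a local background of 20 to 47.5, 0 spots were saturated, and 37 of the 38 probes were well above background on all arrays. The exception, USF1 probe A_72_P108086, was well above background on 10 of 11 F1 arrays and on every LW and CR array. All 7 hormone genes used to check the tissue were measured, with a summed log2 level between 20.96 and 21.26 over all arrays. In bulk tissue such as this, fewer cells of a type and less RNA per cell cannot be told apart. The breed of 1 array is in doubt, and a second stood apart in cell type markers. The title of LW HS 3 named Large White and its breed field named Creole, and the array was analysed as LW. On 34 of the 38 probes its level was nearer to the mean of the other LW arrays than to the CR mean, and the 4 exceptions were the 3 OAZ3 probes and COL21A1 probe O8400. On the 152 probes of the whole table whose other LW arrays did not overlap the CR arrays, LW HS 3 was nearer to CR on 27 and nearer to LW on 125. The second array, LW TN 2, had the highest summed level among LW arrays for markers of fibroblasts, endothelium, mural cells, folliculostellate cells, the intermediate lobe (10.65, against 9.17 to 9.95) and erythroid cells (12.79, against 11.72 to 12.19) and the lowest for hormone genes (20.96, against 21.15 to 21.26 on the other LW arrays).

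CD55 (decay-accelerating factor) is a membrane-anchored protein that breaks up complement convertases and so shields a cell from complement. MSRB2 is a mitochondrial enzyme that reduces oxidised methionine in proteins. OAZ3 belongs to the antizymes, which bind ornithine decarboxylase, the first enzyme of polyamine synthesis, and send it for degradation; OAZ3 is best known from the testis. USF1 is a basic helix-loop-helix leucine zipper factor that binds E-box motifs. MATN2 (matrilin 2) and COL21A1 (a collagen of the fibril-associated FACIT type) are extracellular matrix proteins. IVNS1ABP is a BTB-kelch protein that binds actin, and AKAP12 (gravin) is a scaffold that tethers protein kinase A and protein kinase C.

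A difference seen by one probe may concern only the stretch that this probe reads, so the probe sequences show how far the probes of a gene are separate readings. The array's designed 60-base probes are shown for stretches that some forward reading frame crosses without a stop codon, which does not show that they are coding. They are in lower case, with capitals where a second probe of the gene has the same bases throughout. The capitals of OAZ3 probe A_72_P437459 mark all of its 60 bases, which probe O3277 shares. By the start positions in the scanner files, that probe begins at base 451 of its target and A_72_P619999 at base 88.
OAZ3 A_72_P437459: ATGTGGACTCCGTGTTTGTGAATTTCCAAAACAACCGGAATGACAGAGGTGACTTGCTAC
OAZ3 A_72_P619999: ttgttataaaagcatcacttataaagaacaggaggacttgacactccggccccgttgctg
The USF1 probes shown begin at bases 892 and 813 of theirs. A further pair of USF1 probes, A_72_P672323 and O9582, were identical to each other.
USF1 A_72_P108086: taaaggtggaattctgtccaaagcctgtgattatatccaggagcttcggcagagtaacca
USF1 A_72_P506973: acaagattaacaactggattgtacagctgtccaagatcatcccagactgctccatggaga
For CD55 the brightest probe is shown, for MATN2 the probe on which LW and CR arrays did not overlap, for COL21A1 the probe with the narrowest difference, for IVNS1ABP the brightest probe and a second one, and for AKAP12 the probe with the widest difference between the breeds.
CD55 A_72_P443243: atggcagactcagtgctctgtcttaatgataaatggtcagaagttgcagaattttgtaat
MATN2 A_72_P473646: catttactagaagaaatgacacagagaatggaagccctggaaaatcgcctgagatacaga
COL21A1 O8400: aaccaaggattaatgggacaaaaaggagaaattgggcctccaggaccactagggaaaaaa
IVNS1ABP O5104: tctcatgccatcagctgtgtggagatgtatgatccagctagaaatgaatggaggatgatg
IVNS1ABP A_72_P042861: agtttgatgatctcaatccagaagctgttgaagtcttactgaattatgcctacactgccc
AKAP12 A_72_P056866: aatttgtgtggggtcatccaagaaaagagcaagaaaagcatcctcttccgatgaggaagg
Of the 97 pairs of probes to the same gene, 4 shared a stretch of 20 bases or more. Besides the 2 identical pairs, these were MATN2 probes A_72_P499873 and A_72_P415073 and IVNS1ABP probes A_72_P209852 and A_72_P445118, each with 57 bases in common. The other pairs shared fewer than 20 bases in a row, so most values below come from separate probes on the same RNA of the same pigs, and they are not replicates of a breed.

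LW pigs had more CD55, MSRB2, OAZ3, IVNS1ABP and AKAP12 transcript than CR pigs, and less USF1, MATN2 and COL21A1. On all 38 probes the LW minus CR difference had the same sign as on the gene's other probes, with 22 probes of 5 genes higher in LW and 16 probes of 3 genes lower. Differences passed the adjusted threshold of 0.05 on 36 of the 38 probes, beside 6.65% of all probes. Of these, 20 were higher in LW, beside 3.61% of all probes, and 16 lower, beside 3.05%. LW and CR arrays did not overlap on 18 of the 38, beside 0.287% of all probes. Without LW HS 3 they did not overlap on 23, beside 0.333%. These counts follow from how the genes were chosen, which also favoured agreement in sign among the probes of a gene. The 2 probes that missed the threshold both belong to AKAP12. Each probe showed its direction on all 5 slides, each of which carried both breeds, and also among TN and among HS arrays taken alone. These are parts of the same arrays that chose the genes, so they give no separate support. Figures of level and difference are on the log2 scale of quantile-normalized intensity, on which levels of different probes cannot be compared.

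**Figure D1:**
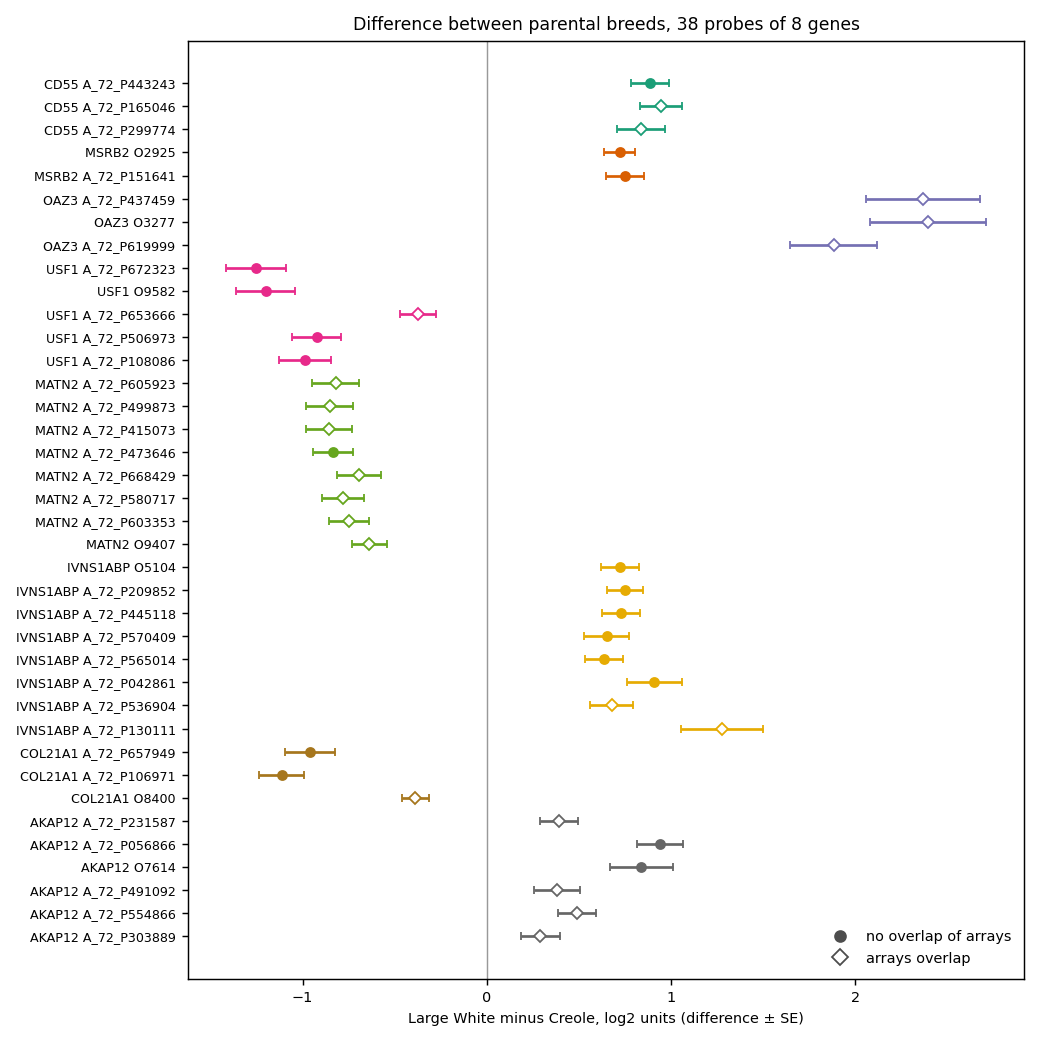
Large White minus Creole difference (log2 units, ± SE of the fit) for the 38 probes, coloured by gene; filled circles are probes whose LW and CR arrays did not overlap, open diamonds those that did. All probes of a gene lie on the same side of 0, which the choice of genes favoured. OAZ3 lies farthest out, at 1.88 to 2.40.

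OAZ3 had the widest difference of the 8 genes. On probe A_72_P437459 the LW arrays had a lowest level of 8.06, a median of 10.73 and a highest level of 11.35, and the CR arrays a lowest of 7.94, a median of 8.13 and a highest of 8.60. The LW mean was 2.37 ± 0.31 (SE) above the CR mean, a 5.15-fold difference, and the other probes gave 2.40 ± 0.31 and 1.88 ± 0.24. The CR arrays lay close together, with a standard deviation (SD) of 0.24 (n = 11) against 0.92 in LW (n = 11), or 0.41 without LW HS 3 (n = 10). A single LW array made the breeds overlap. LW HS 3, the array with conflicting breed labels, stood at 8.06, 7.87 and 7.31 on the 3 probes, within the CR range, while the other LW arrays started at 10.04, 9.84 and 8.76. Without it, LW and CR arrays did not overlap on any of the 3 OAZ3 probes, and the difference was 2.05 to 2.62.

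F1 pigs did not take a common OAZ3 level. Of the 11 F1 arrays, 4 were nearer to the CR mean than to the LW mean on all 3 probes (F1 TN 3, F1 HS 3, F1 HS 4 and F1 HS 5), 6 were nearer to LW on all 3, and F1 TN 2 was divided. On probe A_72_P437459 those 4 arrays read 8.37, 8.32, 8.26 and 8.29, within the CR range of 7.94 to 8.60, and the others began at 9.47 and reached 10.74. The F1 SD was 1.04 (n = 11). The mean position of the F1 between the parents, set to 0 at the CR mean and 1 at the LW mean, was 0.47 to 0.53 over the probes. No F1 array stood between 8.37 and 9.47 on A_72_P437459.

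USF1 showed the opposite direction. On its brightest probe, A_72_P672323, LW arrays ran from 7.65 through a median of 7.98 to 8.22 and CR arrays from 8.62 through 9.23 to 9.70, so that all CR arrays lay above all LW arrays. The difference was -1.25 ± 0.16, or 2.38-fold more in CR. Differences on the other probes were -1.20 ± 0.16, -0.99 ± 0.14, -0.92 ± 0.13 and -0.37 ± 0.10. The last of these, from A_72_P653666, was the only USF1 probe on which breeds overlapped. F1 arrays again fell apart. F1 TN 3, F1 HS 3 and F1 HS 4 were nearer to CR on all 5 probes and the other 8 F1 arrays nearer to LW on all 5. On A_72_P672323 the levels of the first 3 were 9.16, 9.26 and 9.01, and the rest lay at or below 8.29. These 3 arrays were also among the 4 at the CR level of OAZ3. The other array with little OAZ3, F1 HS 5, read 8.29 for USF1, and LW HS 3 read 8.22. OAZ3, USF1 and MATN2 lie on chromosome 4 in the RefSeq gene order (assembly Sscrofa11.1), and IVNS1ABP lies on chromosome 9 with CD55.

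**Figure D2:**
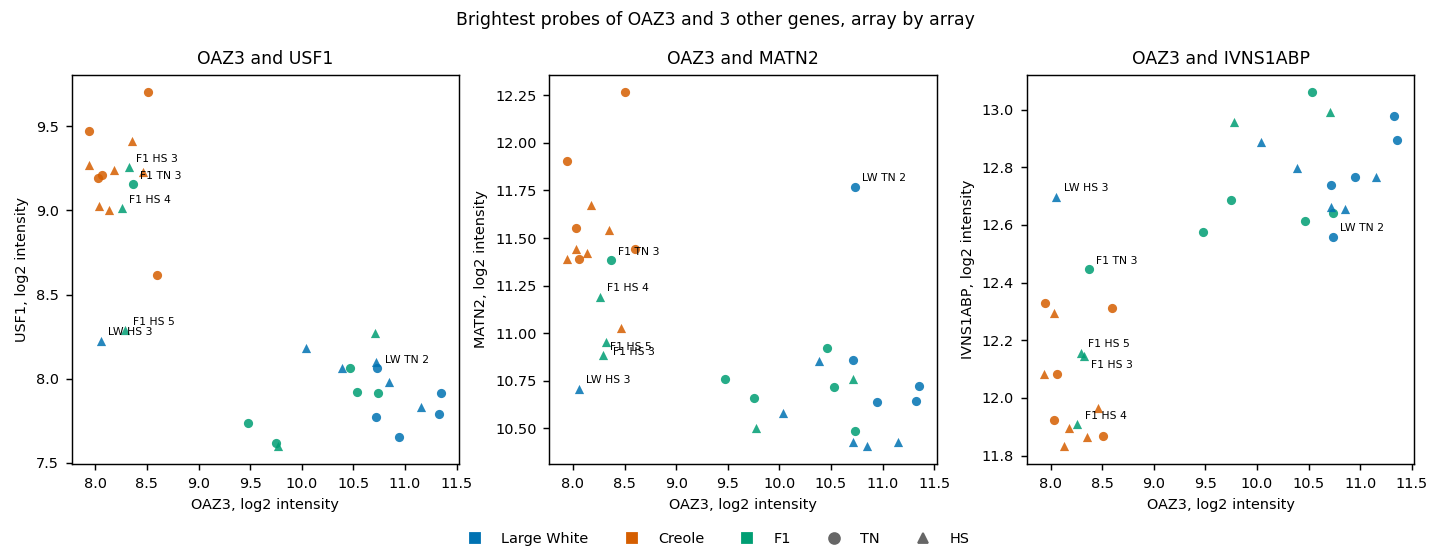
Log2 intensity of the brightest OAZ3 probe (x axis) against that of USF1, MATN2 and IVNS1ABP (y axes), 1 point per array, coloured by breed and shaped by temperature. F1 TN 3, F1 HS 3 and F1 HS 4 sit with the Creole arrays for OAZ3 and USF1, whereas LW HS 3 does so for OAZ3 alone.

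MATN2 was lower in LW on all 8 probes, by -0.64 to -0.86. On A_72_P605923, LW arrays had a lowest level of 10.40, a median of 10.64 and a highest of 11.77, and CR arrays 11.03, 11.44 and 12.27. The difference was -0.82 ± 0.13, a 1.77-fold excess in CR. The highest LW level, 11.77, came from LW TN 2, which was nearer to the CR mean on all 8 MATN2 probes. Without LW TN 2 the differences were -0.67 to -0.94. Probe A_72_P473646, shown above, kept the breeds apart with LW at 8.45 to 9.43 and CR at 9.50 to 10.32. F1 TN 3 was nearer to CR on all 8 probes, F1 HS 4 on 5, and F1 HS 3 and F1 HS 5 on 3 each.

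COL21A1 had differences of -1.11 ± 0.12, -0.96 ± 0.13 and -0.39 ± 0.07. On the brightest probe, A_72_P657949, LW arrays lay between 7.73 and 8.45 (median 8.06) and CR arrays between 8.53 and 9.48 (median 9.11), a 1.94-fold excess in CR. Breeds did not overlap there or on A_72_P106971, with LW at 5.89 to 6.74 and CR at 6.91 to 7.84. Probe O8400 was dim, 5.70 to 6.68 over the parental arrays, and LW HS 3 alone made its breeds overlap. F1 levels stayed at the LW end, with 8 F1 arrays nearer to LW on all 3 probes and none nearer to CR on all 3.

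Markers of fibroblasts, cells that make matrix, differed between the breeds in the same direction as both matrix genes. Of 26 probes to 6 fibroblast markers, 14 were lower in LW than in CR past the adjusted threshold and 0 were higher. Of all probes, 3.05% were lower and 3.61% higher. Among the 14 were all 6 probes of DCN (-0.58 to -0.73) and both probes of COL1A1 and of COL3A1. The summed fibroblast level was 13.87 to 15.14 in LW (median 14.12), 14.25 to 15.42 in CR (median 14.80) and 14.02 to 14.75 in F1 (median 14.37). Only PDGFRA of that list fell to background on some arrays. LW TN 2, high for MATN2, had the highest fibroblast sum in LW, at 15.14. For COL21A1 that array was nearer to CR on 0 of 3 probes. The part of these cells in the MATN2 and COL21A1 differences was not tested.

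CD55 was higher in LW on 3 probes by 0.89 ± 0.10, 0.95 ± 0.12 and 0.84 ± 0.13. On A_72_P443243, LW arrays ranged from 9.97 to 10.83 (median 10.50), CR arrays from 9.14 to 9.82 (median 9.49), a 1.85-fold difference with no overlap. F1 arrays ranged from 10.13 to 10.79 on it (median 10.33) and all 11 were nearer to LW. All 11 were also nearer to LW on A_72_P299774, a probe assigned to the gene by its description only. On A_72_P165046 6 of 11 F1 arrays were nearer to CR.

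MSRB2, read by 2 probes, was higher in LW by 0.72 ± 0.09 and 0.75 ± 0.10. Probe O2925 gave 11.39 to 11.73 in LW (median 11.62), 10.41 to 11.25 in CR (median 10.97) and 11.15 to 11.69 in F1 (median 11.54). All LW arrays lay above every CR array, on this and on the second probe, and on this probe the SD was 0.11 in LW and 0.27 in CR (n = 11 each). Most F1 arrays were at the LW end, and F1 HS 4 alone was nearer to CR on both probes.

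IVNS1ABP was higher in LW on 8 probes, 6 of them without overlap. The brightest of them, O5104, gave 12.56 to 12.98 in LW (median 12.77), 11.83 to 12.33 in CR (median 11.97) and 11.91 to 13.06 in F1 (median 12.61), with a 1.65-fold difference of 0.72 ± 0.10. Probe A_72_P130111 gave 1.28 ± 0.22, and the others 0.63 to 0.91. That probe was assigned to the gene by its description only. F1 arrays HS 3 and HS 5 were nearer to CR on all 8 probes, and HS 4 and TN 3 on 7 of 8, so the 4 arrays at the CR level of OAZ3 were also low for IVNS1ABP. On O5104 they read 12.15, 12.16, 11.91 and 12.45, and the last, F1 TN 3, was nearer to LW on that probe and above every CR array.

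The 6 AKAP12 probes were all higher in LW, from 0.29 ± 0.11 on A_72_P303889 to 0.94 ± 0.12 on A_72_P056866. On the latter, LW arrays lay between 8.80 and 9.40 (median 8.93) and CR arrays between 7.85 and 8.56 (median 8.03), without overlap. On the brightest, A_72_P231587, LW at 9.11 to 9.82 (median 9.51) overlapped CR at 8.79 to 9.46 (median 9.16), with a difference of 0.39 ± 0.10. The F1 mean was nearer to CR on all 6 probes. On 5 F1 arrays all 6 probes were nearer to CR, and only on F1 TN 5 was no probe.

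**Figure D3:**
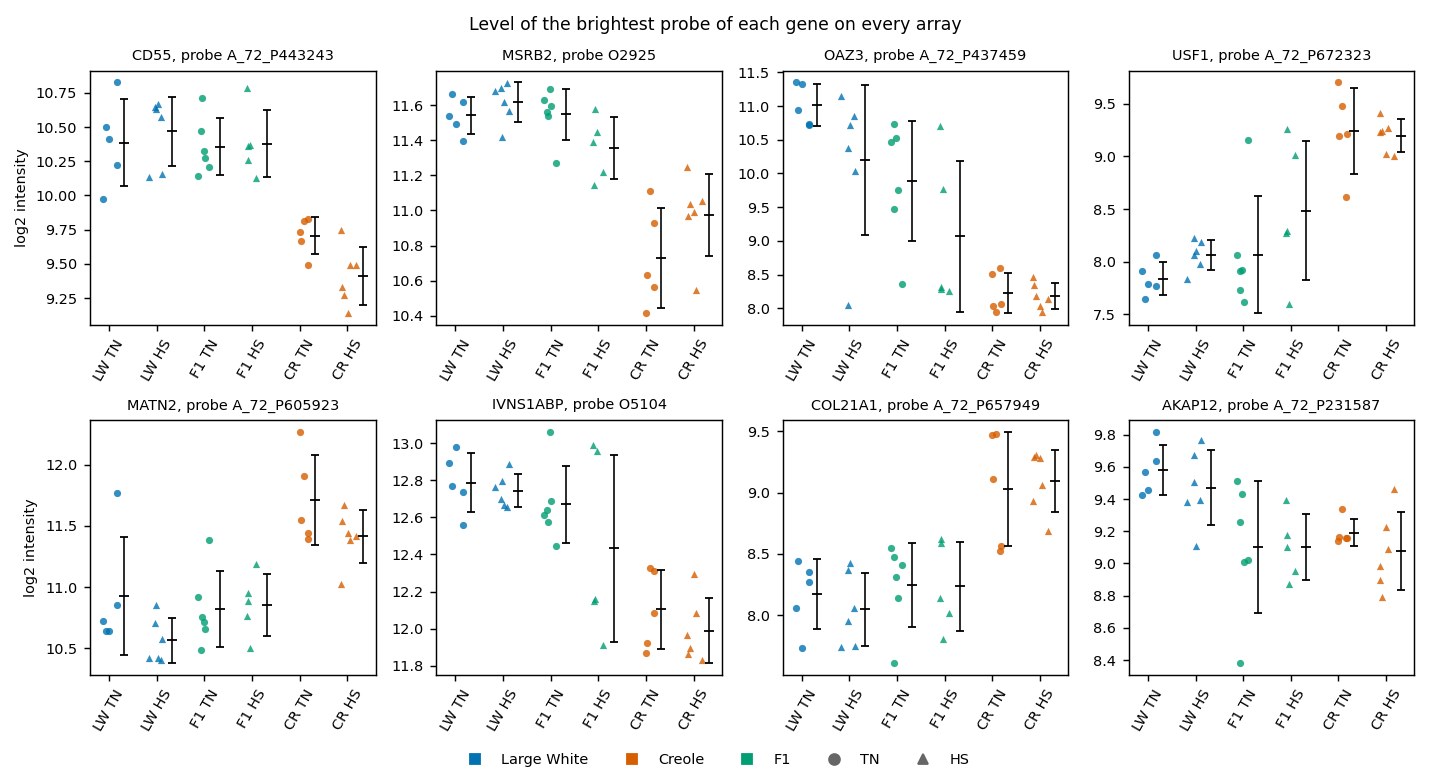
Log2 intensity of the brightest probe of each gene on every array, by breed and temperature; black bars give the mean ± SD of the group to their left. The F1 arrays fall into separate ranges for OAZ3 and USF1, run without a clear gap from 11.91 to 13.06 for IVNS1ABP, and are nearer to Large White for CD55 (11 of 11 arrays) and mostly nearer to Creole for AKAP12 (8 of 11).

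Among pigs of a group, probes of most of the genes varied together, a pattern that the choice of genes did not use. Residuals from the 6 group means were compared between the 2 brightest probes of each gene, 8 relations in all. Over 33 arrays Pearson's r was 0.96 for MATN2 (Spearman's rho 0.92, both p = 1e-05 by permutation, the smallest 100000 resamples can give, adjusted 1.6e-05), 0.95 for IVNS1ABP (rho 0.93) and 0.77 for COL21A1 (rho 0.75), with the same permutation and adjusted p for both. For AKAP12 r was 0.69 (permutation p = 2e-05, adjusted 2.67e-05; rho 0.48, p = 0.00551, adjusted 0.0063), and for CD55 0.57 (permutation p = 0.00056, adjusted 0.00064; rho 0.55, p = 0.0011, adjusted 0.00147). Leaving out the 2 most distant arrays gave an r of 0.93 for MATN2, 0.92 for IVNS1ABP, 0.77 for COL21A1, 0.50 for AKAP12 and 0.61 for CD55. For MSRB2 r was 0.52 (permutation p = 0.00189, adjusted 0.00189; rho 0.38, p = 0.0326, adjusted 0.0326) but 0.28 without the 2 farthest arrays (permutation p = 0.122), so over all arrays the relation rests on those 2. It was 0.77 with the slide as a block (permutation p = 1e-05), and 0.82 within the 11 CR arrays (rho 0.74, permutation p = 0.001 and 0.013, adjusted 0.0017 and 0.017), where leaving out the 2 most distant gave 0.59. In OAZ3 and USF1 the F1 arrays fell into separate ranges, and r is given within the 11 CR arrays, between the brightest probes that share no 20 bases. There it was 0.85 for OAZ3 (rho 0.84, permutation p = 0.001 and 0.0022, adjusted 0.0017 and 0.0044). Leaving out the 2 most distant CR arrays gave 0.85. USF1 gave 0.26 (rho 0.25, permutation p = 0.44 and 0.46, adjusted 0.50 and 0.53), and 0.39 without those 2. AKAP12, at 0.69 over all breeds, gave 0.13 within CR (rho 0.05, permutation p = 0.7 and 0.88, adjusted 0.7 and 0.88). CD55 gave 0.62 within CR (rho 0.74, permutation p = 0.043 and 0.012, adjusted 0.057 and 0.017), and 0.49 without the 2 most distant. MATN2, IVNS1ABP and COL21A1 gave 0.97, 0.92 and 0.95 there.

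No probe of the 8 genes differed between HS and TN past the adjusted threshold, in a series where 10 of 45667 probes did (0.0219%). With limma, 0 of the 38 probes passed, and 3 had an unadjusted p under 0.05, beside 8.77% of all probes; leaving out 1 array, the 3 became 2 to 11, with 11 without F1 HS 2 (9.44% of all probes there), 9 without F1 HS 1 and 8 without F1 TN 3. OAZ3 had the widest shifts, -0.63 ± 0.26 (adjusted p = 0.44), -0.56 ± 0.25 (adjusted p = 0.52) and -0.39 ± 0.20 (adjusted p = 0.58), with 11 to 14 of 17 HS arrays below the TN mean of their breed. Without LW HS 3 these were -0.29 to -0.49, with a smallest adjusted p of 0.54. Of the 4 F1 arrays at the CR level of OAZ3, 3 are HS arrays. MATN2 values were lower in HS on all 8 probes, by -0.08 to -0.25 (smallest adjusted p = 0.40, or 0.62 without LW TN 2). Values were also lower in HS on 25 of 26 fibroblast marker probes (median -0.25), 11 of 11 endothelial (median -0.17), 13 of 15 mural (median -0.17) and 8 of 9 leukocyte probes, with 0 called, and the part of those cells was not tested. USF1 values were higher on all 5 probes, by 0.09 to 0.21 (smallest adjusted p = 0.64). The remaining genes, among them COL21A1 at -0.03 to 0.03, had values of -0.24 to 0.07 and smallest adjusted p-values of 0.64 to 0.92. In all, 29 of the 38 values were negative and 9 positive.

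Breed and temperature did not interact past the threshold on any probe of the 8 genes, nor on any of the 45667 probes (limma, smallest adjusted p = 0.93 among the 38; 4.25% of all probes had an unadjusted p under 0.05). Among them the 2 MSRB2 probes had an unadjusted interaction p of 0.033 and 0.034. Leaving out 1 array, 0 to 5 of the 38 probes had such a p, with 0 without CR TN 1, CR TN 3, CR TN 5, F1 HS 4 or F1 TN 6 and 5 without F1 TN 3. Their HS minus TN values were 0.24 ± 0.11 and 0.35 ± 0.13 in CR, 0.08 ± 0.11 and 0.02 ± 0.13 in LW, and -0.19 ± 0.11 and -0.17 ± 0.13 in F1. Within breeds, HS against TN called 0 probes in the whole table, while 6.80% of all probes in LW, 5.85% in CR and 5.68% in F1 had an unadjusted p under 0.05.

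**Figure D4:**
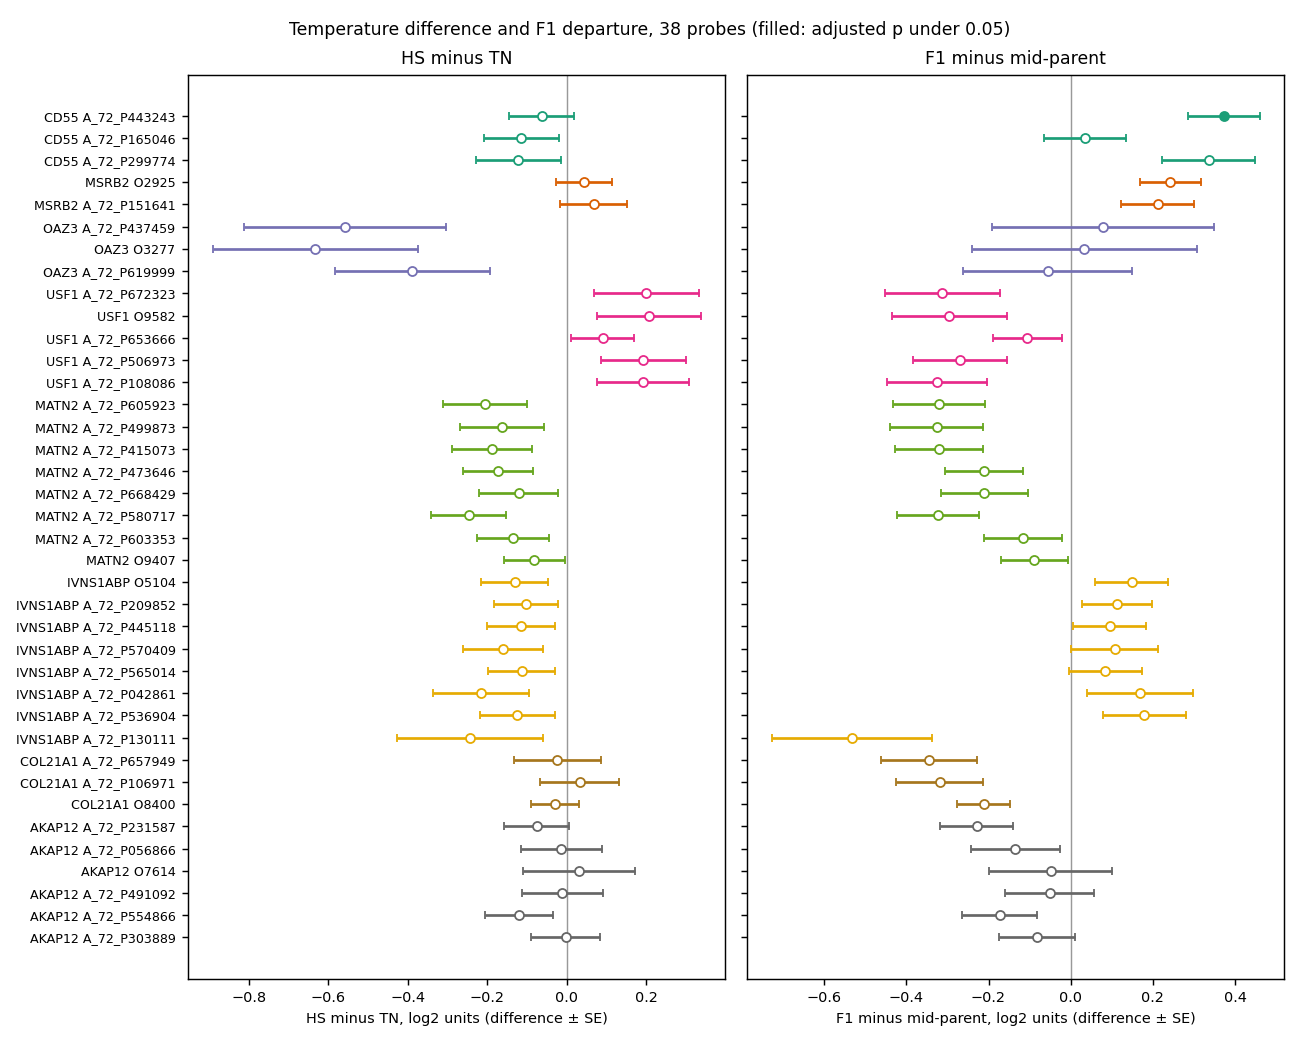
HS minus TN (left) and F1 minus the mean of the parental breeds (right), in log2 units ± SE, for the 38 probes; filled points passed the adjusted threshold. The filled point is CD55 probe A_72_P443243, 0.37 above the parental mean, and none is filled on the left.

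The F1 mean was compared with the mid-parent, the average of the LW and CR means, a contrast that the choice of genes did not use. With limma, 1 of the 38 probes passed (2.88% of all probes did, 1.1% above and 1.78% below the mid-parent), CD55 probe A_72_P443243, at 0.37 ± 0.09 above the mid-parent (adjusted p = 0.016) with all 11 F1 arrays above it. Probe A_72_P299774, assigned to CD55 by its description only, gave 0.34 ± 0.11 (adjusted p = 0.099, also 11 of 11 arrays). A_72_P165046, found by gene name, gave 0.03 ± 0.10 (adjusted p = 0.92), and the difference between these probes was not tested. The call was lost with LW HS 3 taken as CR (0.34, adjusted p = 0.090) and without F1 HS 2 (0.32, adjusted p = 0.055), and with array weights 11 of the 38 probes were called, beside 7.15% of all probes in that fit. With the slide as a fixed block 3 were called, beside 4.09% of all probes. They were 1 probe each of CD55, COL21A1 (adjusted p = 0.034) and MSRB2 (adjusted p = 0.044). For unadjusted p-values all probes are not a like background, since the genes were chosen for their breed difference. A like share was not computed. Probes of a gene also read the same F1 pigs and are not separate results. In the main fit an unadjusted p under 0.05 was reached by 18 of 38 probes, 47.4% against 16.9% of all probes. These were all 3 probes of COL21A1 (-0.21 to -0.35, smallest adjusted p = 0.062), 5 of 8 of MATN2 (smallest adjusted p = 0.068), 4 of 5 of USF1, both of MSRB2 (0.24 and 0.21, smallest adjusted p = 0.067), 2 of CD55, 1 of IVNS1ABP and 1 of AKAP12. Beside the matrix genes, 5 of 11 probes of the fibroblast marker LUM, a matrix proteoglycan, were also below the mid-parent in F1 (-0.82 to -1.19, adjusted p-values of 0.0032 to 0.0095), the only calls among 26 fibroblast probes, all 26 of which had values below it (median -0.17). Values were below it on 13 of 15 mural probes (0 called) and 8 of 9 leukocyte probes (2 called). The part of these cells was not tested.

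The F1 mean lay between the parental means on 36 of the 38 probes and nearer to LW on 30. As a description, the median position was 0.73 (quartiles 0.53 and 0.82), beside 0.63 (quartiles 0.40 and 0.88) over the 3039 probes that differed between the breeds, where 64.2% were nearer to LW. By gene the positions ran from 0.79 to 1.05 for COL21A1, 0.64 to 0.91 for MATN2, 0.75 to 0.83 for USF1, 0.78 to 0.84 for MSRB2 and 0.54 to 0.92 for CD55. IVNS1ABP had 0.63 to 0.76 on 7 probes and 0.08 on A_72_P130111, which also had the widest departure from the mid-parent among the 38 (-0.53 ± 0.19, adjusted p = 0.13). OAZ3 had 0.47 to 0.53, and AKAP12 -0.08 to 0.44. Among TN arrays alone the median position was 0.82 and among HS arrays 0.59, and 30 of 38 probes had the higher position in TN. A share over other probes that differed between the breeds was not computed. The 38 probes belong to 8 genes read on the same F1 pigs. Of those pigs, F1 HS 3, F1 HS 4, F1 HS 5 and F1 TN 3 were at the CR level of OAZ3. The difference in position between TN and HS arrays was not tested beyond the interaction above.

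In 7 lists of family members and partners, 30 of 232 probes passed in LW minus CR, 5 higher and 25 lower, which is 12.9% against 6.65% of all probes, and 0 passed in HS minus TN. The lists' medians, -0.48 to 0.11, stand beside a median of -0.0011 over all probes. Complement regulators and receptors, the relatives of CD55, had 2 probes higher and 8 lower of 39, 10 calls that became 5 without LW HS 5 and 14 without LW TN 2. CD59, which blocks the terminal complement pore, was higher in LW on 2 of 3 probes (0.53 ± 0.14, adjusted p = 0.012, and 0.29 ± 0.09, adjusted p = 0.039). C4BPA, a soluble cofactor for C4b cleavage, was lower on 5 of 7 probes (-0.61 to -1.21), and SERPING1, the C1 inhibitor (-0.46 ± 0.12, adjusted p = 0.013), and VTN (-0.64 ± 0.19, adjusted p = 0.029) on 1 probe each.

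Matrilins and FACIT collagens had 0 probes higher and 9 lower of 21, with a median of -0.48, the widest of the lists. Of the 9, 8 belong to COL14A1, of 12 probes in all (-0.48 to -0.68), and 1 to COL12A1 (-0.63 ± 0.16, adjusted p = 0.013). They moved in the direction of MATN2 and COL21A1 and of the fibroblast markers given above. This list had 1 call with LW HS 3 taken as CR, and 5 without CR HS 1. E-box factors other than USF1 had 0 higher and 5 lower of 41, all of them MITF probes (-0.23 to -0.28). USF2 and USF3, the closest relatives of USF1, were measured and did not pass.

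Polyamine metabolism had 1 probe higher and 1 lower of 42, and 1 to 3 calls in fits that leave out 1 array. AZIN1, an inhibitor of antizymes, was higher in LW on 1 of 7 probes (0.47 ± 0.08, adjusted p = 0.00029), and ODC1, the target of antizymes, was lower on 1 of 2 (-0.38 ± 0.11, adjusted p = 0.035). OAZ1 and OAZ2, the other antizymes, had no breed call, while an OAZ1 probe (-0.38 ± 0.08, adjusted p = 0.011) and PAOX (-0.33 ± 0.07, adjusted p = 0.011) were below the mid-parent in F1. Methionine sulfoxide reductases and thioredoxins had 1 call in 32 probes, TXNRD3, a thioredoxin reductase (-0.41 ± 0.07, adjusted p = 0.00015), and 3 calls without LW TN 2. BTB-kelch proteins had KLHL20 higher (0.34 ± 0.11, adjusted p = 0.049) and KLHL5 lower (-0.32 ± 0.08, adjusted p = 0.0083) of 20 probes, and in 25 of 33 fits that leave out 1 array the list had 1 call. A-kinase anchoring proteins and kinase subunits had 1 call in 37 probes, PRKACB, a catalytic subunit of protein kinase A (0.42 ± 0.12, adjusted p = 0.030), a count that ran from 0 to 2 and changed in 17 of those 33 fits.

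In F1 minus mid-parent, 10 of the 232 probes of these lists passed, 4 above and 6 below, which is 4.31% against 2.88% of all probes. Beside OAZ1 and PAOX, probes below the mid-parent belonged to MAX, the shared partner of MYC and MXI1 (-0.28 ± 0.07, adjusted p = 0.038), and to KBTBD4 (-0.45 ± 0.09, adjusted p = 0.0082, and -0.31 ± 0.09, adjusted p = 0.047). Those above it were MXI1 (0.24 ± 0.06, adjusted p = 0.033), ENC1 (0.35 ± 0.07, adjusted p = 0.0077), KLHL20 (0.34 ± 0.09, adjusted p = 0.040) and PRKACB (0.38 ± 0.11, adjusted p = 0.045).

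Other cell type markers moved with breed in places. RGS5 and ACTA2, markers of mural cells, had 4 of the 15 mural probes higher in LW, and KDR and CDH5 had 2 of 11 endothelial probes higher (3.61% of all probes were), of which 1 was left in 19 of 33 fits that leave out 1 array. Summed levels overlapped between breeds for mural cells (13.56 to 14.28 in LW, 13.68 to 14.20 in CR and 13.56 to 13.93 in F1) and for endothelium (12.14 to 13.59, 11.95 to 13.29 and 11.96 to 12.77). FSHB was the only hormone gene with a call (0.36 ± 0.10, adjusted p = 0.027); the list had 0 calls without LW TN 1 and 4 without LW TN 2. Leukocyte, folliculostellate, posterior lobe and intermediate lobe markers had 0. HBB, of red cells, was lower in HS (-1.15, adjusted p = 0.030).

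Where neighbouring genes differed between the breeds, 6 of 8 went the other way from the gene they lie beside. The 5 genes on each side of the 8 genes, in RefSeq order on Sscrofa11.1, were 79 genes, of which 35 had a probe, 108 probes in all. LW minus CR passed on 24 of these probes (14 higher, 10 lower), from 8 genes beside 6 of the 8 genes, which is 22.2% against 6.65% of all probes. Beside MATN2, which was lower in LW, all 7 probes of RIDA, an enzyme that clears reactive imines, were higher by 0.36 to 1.01 (adjusted p-values up to 0.023), and 1 of 4 probes of RPL30 was higher (0.44 ± 0.12, adjusted p = 0.022). On RIDA probe A_72_P629066 the LW arrays lay between 8.66 and 9.43, and the CR arrays between 4.83 and 9.13. Beside MSRB2, higher in LW, all 3 probes of the axonemal gene SPAG6 were lower (-0.49 to -0.88), one of them, A_72_P013076, with no overlap between LW (5.64 to 6.60) and CR (6.65 to 7.55). MRPL9, a mitochondrial ribosomal protein whose gene overlaps that of OAZ3, was lower on both probes, by -0.30 ± 0.06 (adjusted p = 0.0024) and -0.25 ± 0.05 (adjusted p = 0.00058). C4BPA, with 5 of 7 probes lower, lies near CD55. Only beside AKAP12 did the called neighbours share its direction. ESR1, the oestrogen receptor alpha, was higher in LW on 4 of 5 probes (0.34 to 0.48) and ARMT1 on 1 of 4 (0.65 ± 0.13, adjusted p = 0.0021). ARHGAP30, beside USF1, was higher on 1 of 4 probes (0.20 ± 0.05, adjusted p = 0.018), and 0 probes passed beside IVNS1ABP and COL21A1. In F1 minus mid-parent 4 neighbour probes passed (3.70%), TSTD1 (0.22 ± 0.05, adjusted p = 0.017) and F11R (0.23 ± 0.05, adjusted p = 0.0095) beside USF1, RIDA (-0.35 ± 0.10, adjusted p = 0.044) beside MATN2 and VPS52 (-0.25 ± 0.06, adjusted p = 0.025) beside COL21A1. In HS minus TN 0 passed.

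**Figure D5:**
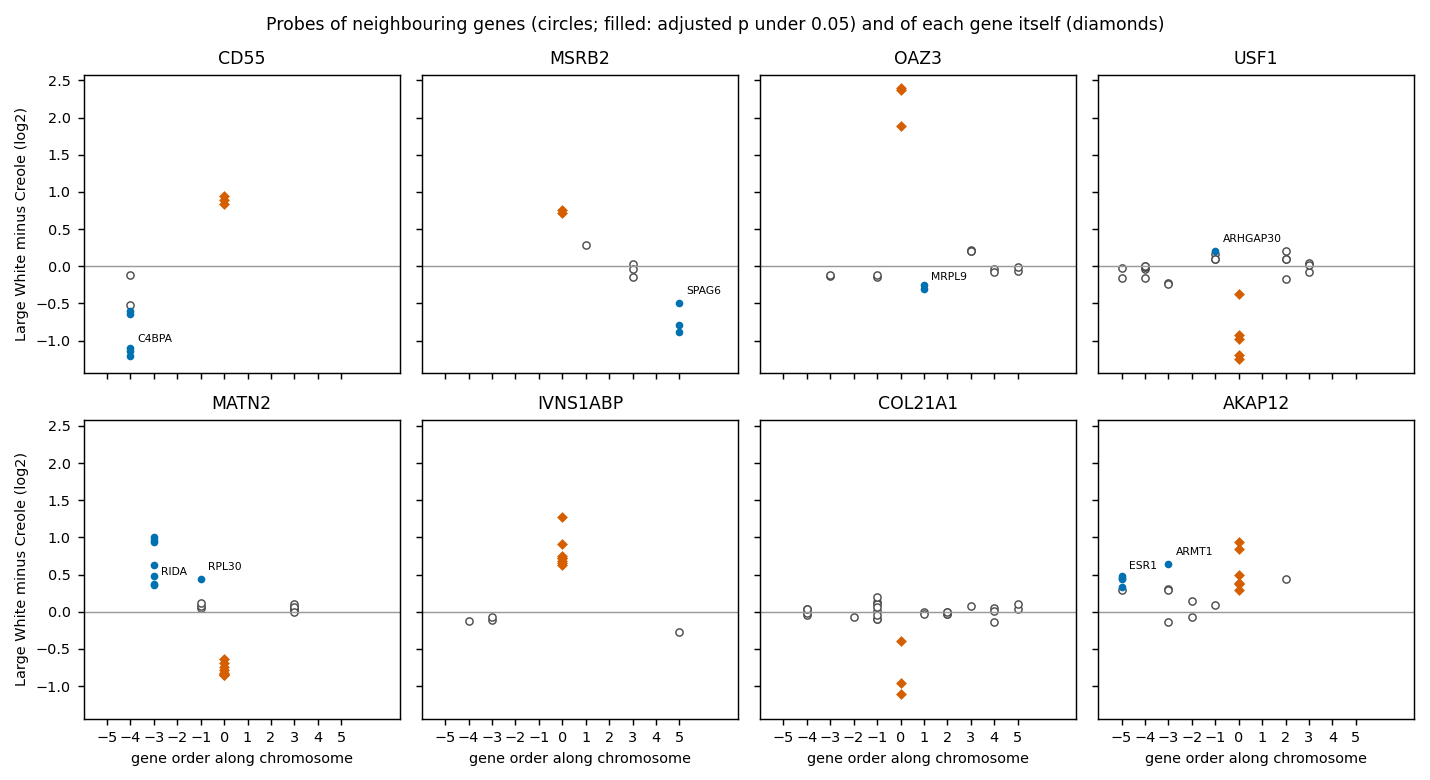
Large White minus Creole difference (log2 units) of the probes of each gene (orange diamonds, at 0) and of its 5 neighbours on each side by gene order (circles, filled where the adjusted p was under 0.05). RIDA, SPAG6, MRPL9 and C4BPA lie on the other side of 0 from their neighbour, and ESR1 and the called probe of ARMT1 on the same side.

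For each gene, the named gene whose residuals were most like those of its brightest probe was sought among 20824 probes over the 33 arrays, as a description. It was MAP2 for CD55 (r = 0.77), OPRK1 for MSRB2 (r = 0.68), VEGFB for OAZ3 (r = 0.67), DUSP12 for USF1 (r = 0.77), BCAR3 for MATN2 (r = 0.85), MNAT1 for IVNS1ABP (r = 0.76), SELP for COL21A1 (r = 0.70) and SERPINE2 for AKAP12 (r = 0.65). All arrays are shared between these comparisons. DUSP12, BCAR3, OPRK1 and SELP lie on chromosome 4 in the same gene order.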

How the data were processed

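Per the labels, RNA of 33 pituitaries was labelled with Cy3 and hybridised to 1-colour Agilent porcine arrays of 60305 probes. The authors deposited log2 values of 45667 probes, quantile-normalized between arrays with no background correction stated, and these were the main values. The deposited scanner files (Feature Extraction 10.10.1.1, per the submitters' processing notes) hold the spot intensity, local background and 0 or 1 marks (a score) for spots well above background. They gave probe names and sequences. Reprocessed from the median intensity, 45554 shared probes differed from the log2 table by a median of 0.0038.

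Models were fitted with limma 3.58.1 in R 4.3.3, with breed and temperature as fixed effects, or 1 mean per group for interaction and within-breed values. Prior degrees of freedom were 3.91. Tests were two-sided, with Benjamini-Hochberg adjustment over all 45667 probes. The pen, slaughter day and parents of the study's own model are not in the labels used here and were not fitted, so p-values measure the spread between these arrays. The position of the F1 is (F1 - CR) / (LW - CR). The brightest probe of a gene is the one with the highest mean. HS arrays were counted by the side of their breed's TN mean on which they fell. Permutations (100000) were run in numpy 2.4.6 under Python 3.11.15 and plots drawn with matplotlib 3.10.9. The fit was tested on simulated data. Alternatives were reprocessed scanner values (median signal, normexp with offset 50, processed signal), a filter on dim probes, slide blocks, array weights, LW HS 3 as CR, and leaving out each array. Correlations within CR arrays were added after seeing the data, as was the choice of probe pairs sharing fewer than 20 bases.

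With 5 or 6 arrays in a group, array number limits the precision. Genes, relatives and neighbours were chosen with earlier results of these data known. Named relatives and neighbours are those with a probe past the threshold, at most 6 per list by smallest adjusted p; the choice of the most alike gene is given with it. RefSeq Sscrofa11.1 served for names and gene order only. The paper states that its probe annotation was brought up to Sscrofa11.1, but the scanner files name no build, so no coordinates are printed. A gene of the related lists that enters their counts is not reported here by name.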

Additional observations from a re-analysis of the deposited data

Results flagged for a closer look

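Among the 48 combinations of a gene's brightest probe and a breed-by-temperature group, 5 held a level, on 4 arrays in all, that stood apart from the rest of its group by Dixon's criterion, where chance alone marks about 1 in 20 groups. LW HS 3, with conflicting breed labels, read 8.06 for OAZ3 against 10.04 to 11.15 on the other LW HS arrays. F1 TN 3 read 9.16 for USF1 against 7.62 to 8.06 and 11.27 for MSRB2 against 11.54 to 11.69 on the other F1 TN arrays. LW TN 2 read 11.77 for MATN2 against 10.64 to 10.86. CR TN 4 read 9.34 for AKAP12 against 9.14 to 9.16. The part of a mislabelled array, of tissue composition or of family in these values was not tested.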

How the results depend on the processing

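No paired analysis was possible because replicates were numbered in accession order and the labels give no litter. In 41 other settings, 33 of which leave out 1 array, 0 values of the 38 probes in LW minus CR changed sign. Among all probes, LW minus CR called 1827 instead of 3039 with LW HS 3 as CR. HS minus TN called 10, and 23 with processed signal and 75th percentile, 92 with the slide as fixed block, 54 with it as random block, 6 with array weights, and 6 (without CR TN 1) to 37 (without F1 TN 3) leaving out 1 array. F1 minus mid-parent called 1313, 3264 with array weights, and 539 (without F1 HS 2) to 2258 (without F1 HS 3). Among the 38 probes it called 1, 3 with either slide block, 11 with array weights, 0 with LW HS 3 as CR, and 1 to 8 leaving out 1 array (8 without F1 HS 3). Within breeds HS minus TN called 0, with array weights 6 in LW and 1 in CR, and leaving out 1 array 0 to 4 in LW, 0 to 2 in CR and 0 to 2 in F1; the interaction called 0 to 1. The related lists had 30 calls in LW minus CR, 14 with LW HS 3 as CR, and 18 (without CR HS 1) to 38 (without LW TN 2). OAZ3 in F1 minus mid-parent was 0.079, -0.026 with LW HS 3 as CR and -0.088 to 0.22 leaving out 1 array. COL21A1 in HS minus TN was -0.024, and -0.066 to 0.0083 leaving out 1 array. The causes were not tested.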
